A study of Mus musculus with 18 samples.

Results

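Tbr1 null layer 6 neurons were compared with wild-type (WT) neurons labelled as layer 5, in 8 of the 18 samples of the series: 4 RNA libraries of each group, taken by their labels. All were tdTomato-positive cells sorted from mouse cortex at postnatal day 5, about 25000 cells per sample. The null group carries the genotype label Tbr1 Layer 6 Null, while the series design calls the mutant constitutive, so it is called null here. The lacking part of Tbr1, the driver of tdTomato and the mouse strain were not stated in the labels. Nothing there says that replicates are separate animals, and the p-values then reflect only library-to-library spread, which may be technical. Null libraries were sequenced in batch A and layer 5 libraries in batch B (replicates 1 and 2) or C (replicates 3 and 4), so layer and batch cannot be told apart. The 4 WT layer 6 libraries, also tdTomato-positive, from postnatal day 5 and in batch A, are set beside them as the reference for layer 6.

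Neurons of cortical layer 6 project largely to the thalamus, and those of layer 5 largely to the brainstem and spinal cord or to other cortical areas. TBR1 is a T-box transcription factor that supports the corticothalamic programme and is known to repress Fezf2, the factor that directs neurons to the subcerebral fate together with its effector Bcl11b (CTIP2). The question here is which layer 6 and layer 5 traits the null neurons keep, gain or lack when layer 5 neurons are the yardstick.

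Total counts were 41091165 to 47540669 in null and 27465597 to 39703820 in layer 5 libraries. Libraries were closest in pairs: chi-square per degree of freedom came to 8.72 and 10.4 within null pairs 1 with 2 and 3 with 4 (22.2 to 59.4 across), and 1.39 and 1.33 within layer 5 pairs 1 with 3 and 2 with 4 (2.94 to 3.35 across). Levels are given as CPM, counts relative to library sizes scaled by TMM (edgeR's cpm) over all 12 sorted-neuron libraries. Layer 5 genes bore out the label of the layer 5 libraries only in part. The summed CPM of 20 subcerebral genes was 750.1 to 767 there, against 1325 to 1390.3 in WT layer 6 and 1559.8 to 1617 in null. By gene, 10 of these 20 were higher and 8 lower in WT layer 6 than in layer 5 (median 0.19), beside 43.4% and 42.2% of all genes. Pcp4, Nefh and Hpgd were lower in WT layer 6 (-0.78, -1.50 and -1.69). The 11 genes of either layer 5 type summed to 426 to 438 CPM in layer 5 and 406 to 427 in WT layer 6. Layer 5 libraries also held more RNA of other cells: 15 astrocyte markers summed to 8045 to 8068 CPM, against 1469.6 to 1514 in null and 1226 to 1360.1 in WT layer 6. The part of these other cells in the results below was not tested, and in bulk samples fewer cells of a type and less RNA per cell cannot be told apart. "Layer 5" below means these libraries as labelled.

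Tbr1 reads were counted in every null library, at 91.6, 97.4, 94.4 and 95.5 CPM in replicates 1 to 4. Layer 5 libraries had 45.7, 40.2, 43.1 and 41.5 CPM, all below every null library, and WT layer 6 had 176 ± 6.84 CPM (mean ± SD, n = 4). The null level was thus between the WT groups, 2.22-fold above layer 5, with a log2 fold change of 1.15 ± 0.041 (SE; edgeR quasi-likelihood test, Benjamini-Hochberg adjusted p = 9.91e-13), and -0.89 ± 0.035 against WT layer 6. Whether these reads lie in the part that the allele lacks was not tested.

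Across all genes, 12653 of 15013 tested (84.3%) were called between null and layer 5 at an adjusted p under 0.05, 6371 (42.4%) higher and 6282 (41.8%) lower in null. With a difference of at least 2-fold as well, 28.2% were called, 9.27% higher and 18.9% lower in null. Groups did not overlap in 79.9% of genes. A call alone is thus near the norm, and sizes and levels are given. With the sign ignored, tested genes differed between null and layer 5 by a median of 0.60 on the log2 scale, and called genes by 0.71. Against WT layer 6, 14.2% of 14588 genes were called in null, 7.31% higher and 6.86% lower, and 1.34% were called and over 2-fold (0.672% higher, 0.665% lower). Between WT layer 6 and layer 5, 85.5% of 14927 genes were called, 43.4% higher and 42.2% lower in layer 6, and 27.6% were called and over 2-fold (9.47% higher, 18.1% lower). The comparison with layer 6 shares the null libraries and that of WT layer 6 with layer 5 shares the layer 5 libraries, so their values are only set side by side.

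Of 22 corticothalamic genes, 13 (59.1%) were higher in null than in layer 5, 6 (27.3%) were lower and 3 were not called. Of all genes, 42.4% were higher and 41.8% lower. The median log2 fold change was 0.52, beside -0.0035 over all genes. Against WT layer 6, 1 was higher and 15 were lower in null, beside 7.31% and 6.86% of all genes. The null mean lay between both WT means for 13 of the 22, below both for 7 and above both for 2.

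One set of corticothalamic genes was kept well above the layer 5 level. Nfib, a nuclear factor I gene, was at 852, 848, 881 and 873 CPM in null and 339, 344, 338 and 345 in layer 5 libraries. Every null library was more than 2-fold above every layer 5 library, and WT layer 6 had 924 ± 28.2 CPM. The log2 fold change of Nfib was 1.34 ± 0.024 against layer 5 and -0.098, a small called difference, against WT layer 6. Nxph3, which encodes a neurexophilin that binds neurexins, was at 46.8, 49.01, 40.3 and 38.3 CPM in null and 14.97, 14.6, 16.4 and 14.9 in layer 5. Null replicates 1 and 2 were the higher pair, and no library reached into the other group. Its log2 fold change was 1.52 ± 0.077 against layer 5, while the -0.14 against WT layer 6 was not called. The same held for Rprm (1.09 against layer 5, -0.13 against WT layer 6) and for Zfpm2, which encodes the GATA cofactor FOG2 (1.14 and 0.083). Crym, a thyroid hormone binding protein gene, was at 112, 118, 122 and 122 CPM in null and 55.8, 52.9, 56.3 and 51.8 in layer 5, and with 94.98 ± 12.7 CPM in WT layer 6 it was higher in null than in both. The largest adjusted p of these 5 genes against layer 5 was 5.97e-11 (edgeR, Benjamini-Hochberg).

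A second set stayed above layer 5 but below WT layer 6. The corepressor gene Tle4 was at 103, 104, 96.8 and 100.2 CPM in null and 71.5, 70.7, 76.2 and 68.8 in layer 5. The groups were separate but close, whereas WT layer 6 had 206 ± 16.1 CPM. Its log2 fold change was 0.49 ± 0.036 against layer 5 and -1.03 ± 0.050 against WT layer 6, so null lay nearer to layer 5. Foxp2, a forkhead factor of corticothalamic neurons, was at 17.8, 17.6, 17.8 and 16.9 CPM in null, 11.7, 12.5, 12.1 and 12.7 CPM in layer 5 and 25.5 ± 2.56 CPM in WT layer 6. Here null was about midway, at 0.52 and -0.54 on the log2 scale. Sox5, which controls the order of deep-layer fates, had 129, 137, 113 and 112 CPM in null and 86.8, 76.9, 88.5 and 79.9 in layer 5, with log2 fold changes of 0.57 ± 0.062 and, against WT layer 6, -0.28 ± 0.076. Ntsr1, the neurotensin receptor gene that marks corticothalamic neurons, had 44.01, 48.3, 34.7 and 33.5 CPM in null and 26.6, 26.6, 27.3 and 25.5 in layer 5, with 0.60 ± 0.097 and -0.50 ± 0.096 in the same order. For both, null replicates 1 and 2 were above replicates 3 and 4, and all 4 were above layer 5. The kainate receptor gene Grik3 (0.63 and -0.33) lay between as well. The largest adjusted p of these 5 genes was 3.63e-05 against layer 5 and 0.0247 against WT layer 6 (edgeR).

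The LIM-only gene Lmo3 (0.52 against layer 5, -0.019 against WT layer 6) and the adaptor gene Sla (0.54 and -0.11) were higher in null than in layer 5 and were not called against WT layer 6. The other 9 genes were lower in null than in layer 5 or not called. Wnt7b, a WNT ligand gene, was at 86.5, 86.2, 72.4 and 69.9 CPM in null and 75.3, 74.9, 78.3 and 76.9 in layer 5, against 179 ± 10.4 CPM in WT layer 6. Null replicates 1 and 2 were above all layer 5 libraries and replicates 3 and 4 below all, and the difference was not called (0.045 ± 0.061, edgeR adjusted p = 0.494). The log2 fold change was 0.20 with null replicates 1 and 2 alone and -0.085 with 3 and 4 alone, and both were called (edgeR adjusted p = 3.2e-05 and 0.0317). Hs3st4, a heparan sulfate sulfotransferase gene, had 34.2, 37.4, 32.99 and 32.6 CPM in null and 81.4, 77.4, 80.2 and 74.5 in layer 5, with 64.7 ± 3.17 CPM in WT layer 6. Null libraries were below both WT groups, by -1.19 and -0.92 on the log2 scale. Syt6, a synaptotagmin gene, was likewise below both (-0.50 and -0.76), as were Thsd7b (-0.47 and -0.71), the cadherin gene Cdh18 (-0.47 and -0.50) and the melanocortin receptor gene Mc4r (-1.42 and -2.89). Garnl3 was -1.64 against layer 5 with -0.028, not called, against WT layer 6. Nfia, at -0.046, and Ppp1r1b, which encodes DARPP-32, at 0.080, were not called against layer 5. Like Wnt7b, both were called lower in null than in WT layer 6.

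**Figure D1:**
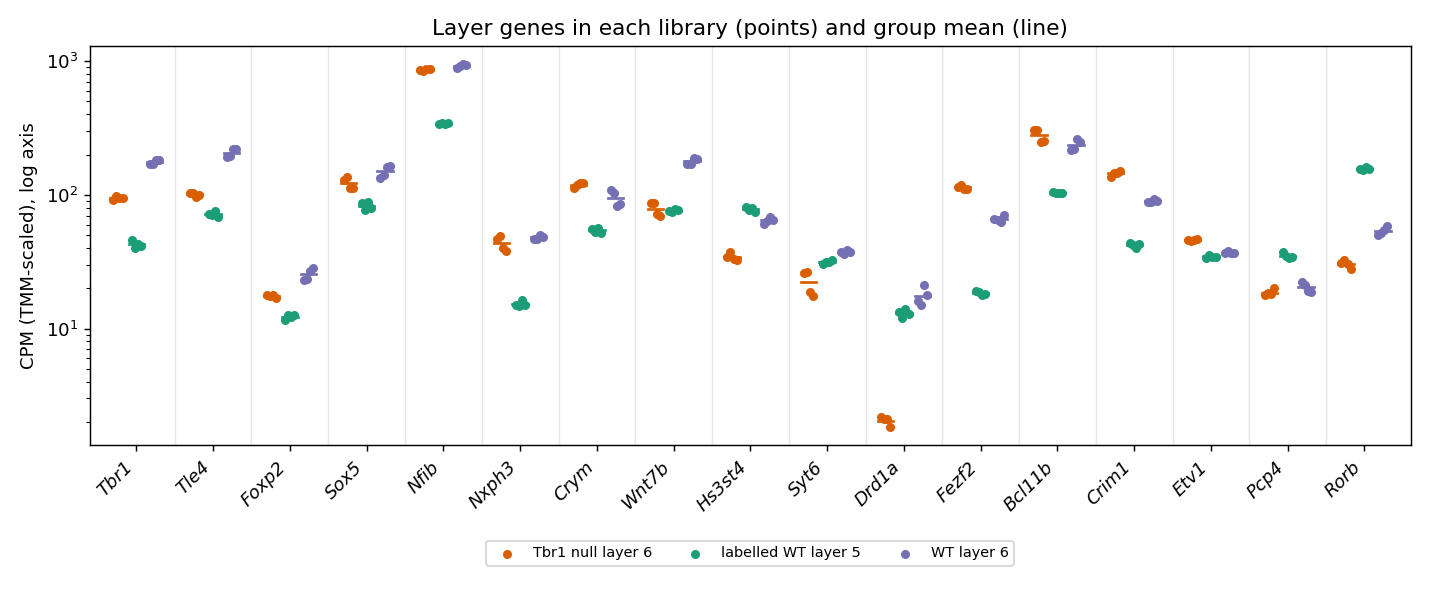
Levels of 17 layer genes in each library, as TMM-scaled CPM on a log axis, with 4 points per group and a line at the group mean. Tbr1 and Tle4 in null libraries lie between the WT groups, Hs3st4 and Drd1a lie below both, and Fezf2 and Crim1 lie above both.

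Subplate neurons and their layer 6b remnant lie beneath layer 6 and share several of its genes. Of 16 such genes, 6 (37.5%) were higher and 10 (62.5%) lower in null than in layer 5, with a median log2 fold change of -0.79. The shares over all genes were 42.4% and 41.8%. Against WT layer 6, 0 of 15 were higher and 9 lower, beside 7.31% and 6.86% of all genes. The orphan nuclear receptor gene Nr4a2 was at 63.6, 64.5, 53.2 and 54.2 CPM in null and 12.7, 13.5, 13.4 and 13.02 in layer 5, a 4.47-fold difference with no overlap, and at 94.6 ± 8.06 CPM in WT layer 6. The dopamine receptor gene Drd1a was the reverse, at 2.16, 2.09, 2.09 and 1.83 CPM in null and 13.2, 12.02, 13.95 and 12.8 in layer 5. It was 6.34-fold lower in null than in layer 5, and WT layer 6 had 17.4 ± 2.67 CPM. Ctgf, a secreted matrix protein gene, had 6.75, 6.16, 8.52 and 6.92 CPM in null and 9.20, 9.77, 9.09 and 8.45 in layer 5. The groups overlapped, since null replicate 3 was above layer 5 replicate 4, and the log2 fold change was -0.37 ± 0.10 (edgeR adjusted p = 0.00331, and 0.0581 with layer 5 batch C alone). Cplx3, a complexin gene of subplate neurons, had 2, 0, 1 and 1 counts in the null libraries and 175, 186, 143 and 151 in layer 5. WT layer 6 was also below layer 5, with 8, 5, 28 and 33 counts. Tmem163 was split within the null group, at 8.30, 10.005, 94.4 and 98.3 CPM, beside 11.2, 13.3, 12.9 and 11.03 CPM in layer 5: replicates 1 and 2 were below every layer 5 library and 3 and 4 were above. The neurotrophin receptor gene Ngfr was at 17.3 ± 1.35 CPM in WT layer 6, 4.03 ± 0.254 in null and 2.33 ± 0.399 in layer 5.

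Of 20 subcerebral genes, 12 (60%) were higher in null than in layer 5, 7 (35%) were lower and 1 was not called. The shares over all genes were 42.4% higher and 41.8% lower. The median log2 fold change of the list was 0.56. At 2-fold or more, 8 were higher and 2 lower, beside 9.27% and 18.9% of all genes. Null means were above both WT means for 11 genes, below both for 7 and between for 2. The list thus split, and its higher members are described first.

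Fezf2 was at 114, 118, 111 and 111 CPM in null and 19.3, 18.9, 17.8 and 18.3 in layer 5. All null libraries were over 5-fold above all layer 5 libraries, and above WT layer 6 at 66.1 ± 3.02 CPM. The log2 fold change was 2.61 ± 0.040 against layer 5 and 0.78 ± 0.039 against WT layer 6. Bcl11b was at 306, 308, 250.2 and 254 CPM in null and 105, 102, 103 and 104 in layer 5. Null replicates 1 and 2 were the higher pair, and the log2 fold change of 1.43 ± 0.061 against layer 5 stood beside 0.24 ± 0.077 against WT layer 6, which was not called (edgeR adjusted p = 0.0552). Crim1, a transmembrane protein gene of corticospinal neurons, was at 136, 147, 147 and 151 CPM in null and 43.5, 42.3, 40.3 and 42.6 in layer 5, with 89.7 ± 1.97 CPM in WT layer 6. Its null level was 3.44-fold that of layer 5. Bhlhe22, which encodes a bHLH factor, had 412, 396, 415 and 410.1 CPM in null and 122, 126, 116 and 125 in layer 5. It did not differ by a call from WT layer 6 (-0.046), against 1.74 ± 0.032 for layer 5. Ldb2, a LIM-domain cofactor gene, showed 0.83 ± 0.037 and 0.16 in the same order.

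Further members above both WT groups were Chst8, a sulfotransferase gene (2.43 against layer 5, 0.63 against WT layer 6), the natriuretic peptide receptor gene Npr3 (1.83 and 0.53), the contactin gene Cntn6 (1.19 and 0.99) and the POU factor gene Pou3f1 (1.06 and 0.37). In contrast, Pcp4, a calmodulin regulator gene, was at 17.7, 18.3, 18.1 and 20.03 CPM in null and 37.4, 34.7, 33.8 and 34.4 in layer 5. Layer 5 libraries were all above, with -0.92 ± 0.054, and the -0.14 against WT layer 6 was not called. The heavy neurofilament gene Nefh averaged 1.72 CPM in null and 5.10 in layer 5, and the prostaglandin dehydrogenase gene Hpgd averaged 1.41 and 5.06 CPM. Neither was called between null and WT layer 6. The largest adjusted p against layer 5 among the 12 subcerebral genes named here was 2.32e-07 (edgeR, Benjamini-Hochberg).

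**Figure D2:**
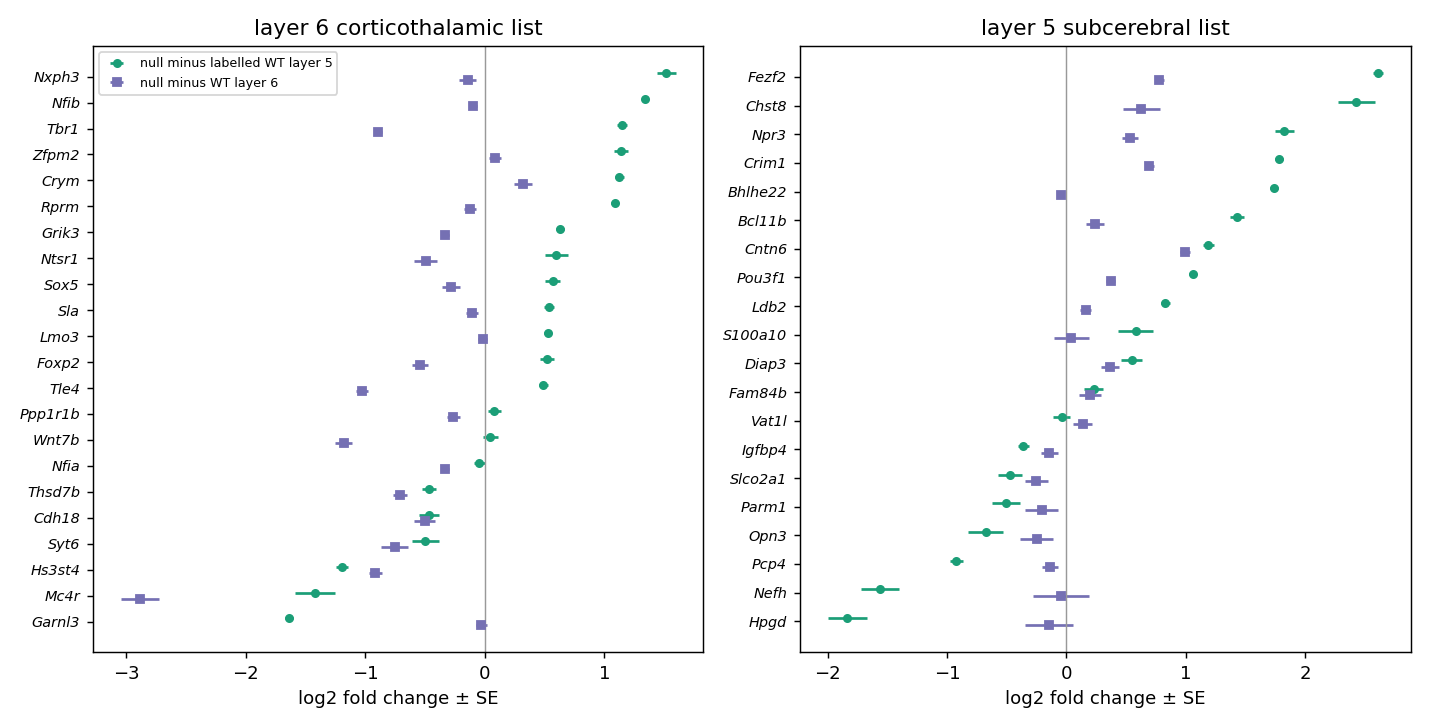
Log2 fold changes ± SE of null against layer 5 (circles) and against WT layer 6 (squares) for 22 corticothalamic genes at left and 20 subcerebral genes at right. Tle4 and Tbr1 have a positive value against layer 5 and a negative value against WT layer 6, whereas Fezf2, Npr3, Crim1 and Cntn6 are positive in both.

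Of 10 tested genes that mark layer 5 neurons of either projection type, 6 (60%) were higher and 4 (40%) lower in null. The shares over all genes were 42.4% and 41.8%. Etv1, an ETS factor gene of layer 5, was at 45.7, 45.1, 45.7 and 46.4 CPM in null and 33.96, 35.7, 34.2 and 34.5 in layer 5. The null libraries thus had more of it, by 0.40 ± 0.040 on the log2 scale. WT layer 6 had 36.97 ± 0.687 CPM, and null was called higher there too (0.31). Rbp4, the retinol binding protein gene used to mark layer 5, was low everywhere, at 0.589, 0.880, 0.998 and 0.735 CPM in null and 2.32, 2.08, 2.11 and 2.25 in layer 5. Its level in layer 5 was 2.74-fold that in null, with 1.04 ± 0.389 CPM in WT layer 6. Deptor, an inhibitor of mTOR, was lower in null (-2.26), whereas Tox (1.88) and the serotonin receptor gene Htr2c (1.77) were higher. Qrfpr did not pass the filter on low counts.

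Of 20 callosal and upper-layer genes, 11 (55%) were higher and 8 (40%) lower in null, beside 42.4% and 41.8% of all genes. The median of the list was 0.47. Lmo4 (1.06), Pou3f2 (1.13), Lhx2 (1.02) and the netrin receptor gene Unc5d (2.05) were higher in null. Rorb, a nuclear receptor gene of layer 4, was at 30.98, 32.8, 30.4 and 28.1 CPM in null and 157, 154, 162 and 156 in layer 5, hence 5.15-fold lower in null with no overlap. It was also lower than in WT layer 6, at -0.82. The homeobox genes Cux1 and Cux2 of upper layers were lower in null than in layer 5 (-0.65 ± 0.029 and -0.74 ± 0.045) and were not called against WT layer 6. Plxnd1, a semaphorin receptor gene (-1.69), and the pleiotrophin gene Ptn (-1.16) were lower as well.

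Genes of newborn neurons and growing axons had the median furthest from 0 among the neuronal lists, a log2 fold change of 1.72. Of 19 tested, 17 (89.5%) were higher in null, 0 were lower and 2 were not called (edgeR). The shares over all genes were 42.4% higher and 41.8% lower. By 2-fold or more, 13 were higher, beside 9.27% of all genes. At an unadjusted p under 0.05 (edgeR), 0 were lower. Called lower were 0 with DESeq2, but 2 with the upper quartile or pan-neuronal scaling. WT layer 6 had a like distance, with a median of 2.02 against layer 5, and null differed from it by -0.024 in the median. Neurog2, a proneural factor gene, was at 26.5, 24.8, 33.96 and 30.6 CPM in null and 0.586, 0.994, 0.649 and 0.848 in layer 5, where it had 20 to 34 counts per library. Null and WT layer 6, at 26.8 ± 2.62 CPM, were not told apart by a call. Neurod1 was at 61.04, 63.99, 69.01 and 70.8 CPM in null, 11.1, 12.05, 10.5 and 10.7 CPM in layer 5 and 44.9 ± 2.17 CPM in WT layer 6, higher in null than in both. Cntn2, an axonal adhesion molecule gene, was at 672, 689, 726 and 713 CPM in null and 77.4, 73.5, 75.1 and 74.7 in layer 5. All null libraries were over 8-fold above layer 5 and below WT layer 6, at 1000.3 ± 18.3 CPM. Eomes (3.36), Sox11 (2.06) and Igfbpl1 (3.99) were higher in null, whereas the microtubule protein gene Dcx differed by 0.34 ± 0.046 and the growth cone protein gene Gap43 was not called (-0.049 ± 0.026), though it was called lower under 4 other settings.

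Of 18 genes that increase as neurons mature, 7 (38.9%) were higher and 11 (61.1%) lower in null than in layer 5, with a median of -0.73. The shares over all genes were 42.4% and 41.8%. WT layer 6 had a like distance from layer 5, with a median of -0.72. Against WT layer 6, 10 of the 18 were higher and 2 lower in null (median 0.22), beside 7.31% and 6.86% of all genes. Shank1, a postsynaptic scaffold gene, was at 51.6, 58.1, 53.9 and 51.7 CPM in null and 552, 527, 544 and 522 in layer 5, and Grin2a, an NMDA receptor subunit gene, at 5.72, 7.34, 6.28 and 6.05 and 32.03, 31.8, 32.97 and 32.2 CPM. In both, the layer 5 libraries were over 4-fold above every null library. Slc12a5, which encodes the chloride exporter KCC2, was lower in null than in layer 5 by less (-0.89 ± 0.038). It was called higher in null than in WT layer 6 (0.17). Against layer 5, the neurofilament genes Nefl and Nefm went the other way. Nefl was at 306, 305, 259 and 251 CPM in null and 107, 113, 106 and 108 in layer 5, 2.58-fold higher in null, and WT layer 6, at 97.5 ± 6.65 CPM, was near layer 5. Nefm was at 119.8, 113, 88.9 and 96.5 CPM in null and 23.2, 20.1, 22.003 and 19.4 in layer 5, with 40.6 ± 3.83 CPM in WT layer 6. Null libraries thus exceeded both WT groups for the light and medium subunits, and layer 5 exceeded null for the heavy one, Nefh.

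Among 10 genes of glutamatergic identity, 5 (50%) were higher and 5 (50%) lower in null, near the shares of all genes (42.4% and 41.8%). The vesicular glutamate transporter gene Slc17a7 was at 53.5, 56.2, 55.5 and 59.3 CPM in null and 119.5, 119, 117 and 110.1 in layer 5, 2.08-fold lower in null, while Slc17a6, which is used earlier in development, was at 44.3, 41.8, 55.8 and 51.5 and 24.1, 25.6, 23.1 and 25.3 CPM. Null libraries were below layer 5 for the first and above it for the second. WT layer 6 had 76.4 ± 5.42 CPM of Slc17a7 and 44.5 ± 1.58 CPM of Slc17a6. Null was called lower than WT layer 6 for Slc17a7 (-0.44), and Slc17a6 was not called (0.12). Camk2a, a kinase gene of excitatory synapses, was at 23.4, 29.4, 32.2 and 30.5 CPM in null and 337, 290.5, 337 and 287 in layer 5. It did not differ by a call between null and WT layer 6, which had 25.9 ± 6.79 CPM. Neurod2 was at 383, 380.0, 396 and 389.9 CPM in null and 86.5, 84.8, 81.3 and 84.2 in layer 5, with 2.20 ± 0.030 on the log2 scale. The 20 pan-neuronal genes summed to 8853 to 9001 CPM in null and 8364 to 8482 in layer 5, and their median difference was -0.23.

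**Figure D3:**
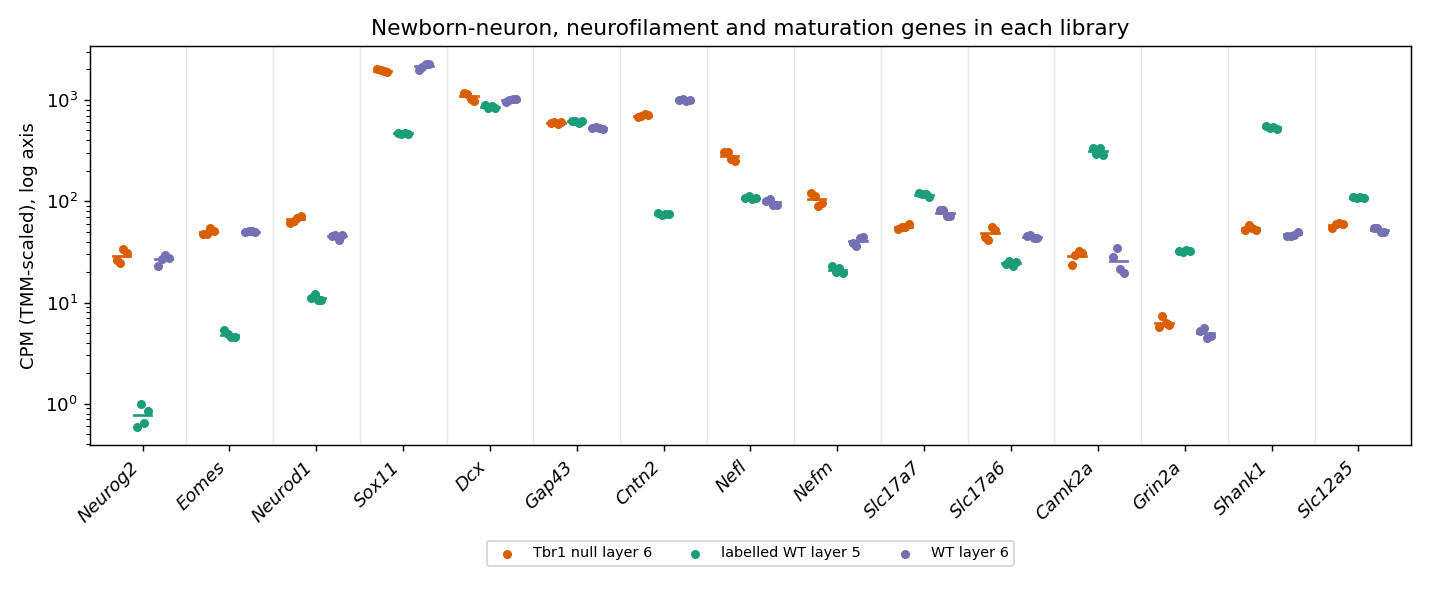
Levels of 15 genes of newborn neurons, axons, neurofilaments and maturing synapses in each library, as TMM-scaled CPM on a log axis with a line at the group mean. Null and WT layer 6 points overlap for Neurog2 and Camk2a and lie far from layer 5, whereas Nefl and Nefm are highest in null.

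Axon guidance genes were mostly higher in null than in layer 5, with a median of 0.81. Of 50, 34 (68%) were higher, 10 (20%) lower and 6 not called, beside 42.4% higher and 41.8% lower of all genes. WT layer 6 had a like distance from layer 5, with 33 higher, 12 lower and a median of 0.86. Against WT layer 6, 18 were higher and 7 lower in null (median 0.046), beside 7.31% and 6.86% of all genes. Among ligands, the secreted semaphorin gene Sema3c was higher in null than in layer 5 (3.12) and was not called against WT layer 6. Among receptors, the semaphorin receptor gene Nrp1 was at 549.8, 517, 513 and 517 CPM in null and 89.4, 89.3, 87.1 and 90.4 in layer 5. Each null library was over 5-fold above each layer 5 library, and WT layer 6 had 454 ± 10.8 CPM. The slit receptor gene Robo1 had 1.94 ± 0.033 and was not called against WT layer 6 (-0.028). The netrin receptor gene Dcc was at 163, 160.3, 169 and 156 CPM in null, 37.2, 36.5, 37.2 and 35.8 CPM in layer 5 and 122 ± 11.9 CPM in WT layer 6. The ephrin receptor gene Epha7 was at 243, 232, 191 and 197, 49.8, 49.02, 49.3 and 48.6 and, as a mean, 122 ± 8.38 CPM in the same order. Ntng1, which encodes netrin-G1, was at 35.2, 33.2, 29.3 and 26.7 CPM in null, 8.08, 7.57, 7.53 and 6.82 CPM in layer 5 and 12.1 ± 1.20 CPM in WT layer 6. Dcc, Epha7 and Ntng1 were higher in null than in both WT groups, with null against WT layer 6 at 0.41, 0.83 and 1.37. The Robo family gene Robo3, at 0.990 ± 0.224 CPM in null and 3.32 ± 0.218 CPM in layer 5, and the netrin gene Ntn1 (-1.29) were lower in null.

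Of 25 glutamate receptor genes, 10 (40%) were higher and 11 (44%) lower in null, near the shares of all genes (42.4% and 41.8%). The AMPA receptor subunits Gria1 (1.37), Gria2 (1.55), Gria3 (0.91) and Gria4 (1.51) were all higher in null. The NMDA receptor gene Grin2b was at 171, 182, 165 and 165 CPM in null and 258, 261, 255 and 257 in layer 5, lower in null by -0.60 ± 0.033 on the log2 scale. WT layer 6 had 156 ± 4.31 CPM of it. Grin3a was at 159, 159, 139 and 136 CPM in null, 97.1, 89.99, 95.6 and 89.7 CPM in layer 5 and 78.1 ± 9.47 CPM in WT layer 6, highest in null. Of 18 genes of GABA receptors and the inhibitory postsynapse, 6 (33.3%) were higher and 8 (44.4%) lower. Gabra2 was at 132, 128, 122 and 127 CPM in null and 15.1, 13.7, 14.96 and 15.2 in layer 5, 8.62-fold higher in null. WT layer 6 was also far above layer 5, at 97.98 ± 4.15 CPM, and null against it was at 0.38. Gabrg1 was at 18.3, 15.8, 20.8 and 19.8 CPM in null and 35.1, 35.3, 36.4 and 40.4 in layer 5, lower in null, though null was above WT layer 6 (9.80 ± 0.676 CPM). The exchange factor gene Iqsec3 (-1.37 and, against WT layer 6, 0.54) lay between in the same way.

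Of 32 voltage-gated channel genes, 12 (37.5%) were higher and 15 (46.9%) lower in null, beside 42.4% and 41.8% of all genes. By 2-fold or more, 3 were higher and 8 lower. The potassium channel gene Kcnq3 was at 26.2, 26.3, 23.6 and 22.4 CPM in null and 74.4, 73.96, 72.2 and 76.2 in layer 5, and the sodium channel gene Scn3a, used mainly before and around birth, at 151, 143, 144 and 144 and 82.1, 85.1, 83.1 and 80.8 CPM. Kcnq3 was lower and Scn3a higher in null, without overlap. WT layer 6 had 30.8 ± 2.04 CPM of Kcnq3 and 150 ± 1.40 CPM of Scn3a. Null against WT layer 6 was at -0.32 for Kcnq3, and Scn3a was not called (-0.050). The T-type calcium channel gene Cacna1i (-2.68) was lower, and the sodium channel subunit gene Scn3b (1.79) and the calcium channel subunit gene Cacna2d1 (1.56) were higher. For WNT signalling, 20 (46.5%) of 43 tested genes were higher and 19 (44.2%) lower, near the shares of all genes (42.4% and 41.8%). The list holds Tcf4, which encodes a basic helix-loop-helix factor and not a WNT effector. The receptor gene Fzd1 (2.49) and the R-spondin genes Rspo2 (2.11) and Rspo3 (3.44) were higher in null, and the destruction complex gene Apc (-1.91) was lower. Lgr5, an R-spondin receptor gene, was at 5.002, 4.596, 4.09 and 3.27 CPM in null, 0.229, 0.643, 0.292 and 0.406 CPM in layer 5 and 0.579 ± 0.127 CPM in WT layer 6, high in null alone.

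Some genes lay beyond both WT groups, and were chosen for it by the size of the smaller of the 2 differences, so the values are a description. Above both were the growth factor genes Fgf10, at 10.2, 8.80, 8.13 and 7.23 CPM in null, 2.68, 2.28, 2.60 and 1.95 CPM in layer 5 and 2.65 ± 0.450 CPM in WT layer 6, and Fgf9, at 15.9 ± 2.57, 4.29 ± 0.489 and 6.12 ± 0.432 CPM in the same order. The thyrotropin-releasing hormone receptor gene Trhr was at 18.9, 19.2, 16.8 and 16.1 CPM in null, 1.91, 1.46, 1.53 and 2.40 CPM in layer 5 and 6.41 ± 0.794 CPM in WT layer 6. The calcium-binding protein gene Cabp7 was at 6.19 ± 0.675, 0.858 ± 0.247 and 2.07 ± 0.433 CPM. Below both was Cyp26b1, which degrades retinoic acid, at 1.13, 1.41, 1.66 and 2.51 CPM in null, 24.6, 25.97, 25.7 and 25.5 CPM in layer 5 and 16.5 ± 2.96 CPM in WT layer 6. Aldh1a3, which makes retinoic acid, was below both as well, at 0.295 ± 0.0148 CPM in null, 5.64 ± 0.623 CPM in layer 5 and 1.41 ± 0.369 CPM in WT layer 6. The synaptic zinc transporter gene Slc30a3 was at 0.316 ± 0.0984, 10.7 ± 0.541 and 1.20 ± 0.439 CPM. Lars2, Pcdhgb8 and Hist1h4m met the same rule. For Lars2 the groups overlapped: null replicate 2, at 76.96 CPM, was below WT layer 6 replicate 4, at 270.5 CPM. Pcdhgb8 and Hist1h4m belong to gene families with near-identical members, so their counts are uncertain.

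Other genes lay between the WT groups, also chosen for it. Toward layer 5 from below were Lypd1, at 22.2 ± 2.83 CPM in null, 54.2 ± 2.21 CPM in layer 5 and 8.86 ± 0.951 CPM in WT layer 6, and the thyroid hormone receptor gene Thrb, at 17.2 ± 2.20, 39.2 ± 0.302 and 7.22 ± 1.05 CPM. Nrgn, which encodes the calmodulin-binding protein neurogranin, was at 113, 109, 113 and 111 CPM in null, 168, 164, 159 and 163 CPM in layer 5 and 47.1 ± 7.63 CPM in WT layer 6. Toward layer 5 from above were Nfe2l3, at 13.5 ± 1.64, 5.88 ± 0.822 and 39.3 ± 1.61 CPM, and the growth factor gene Gdf10, at 6.25 ± 0.376, 4.90 ± 0.375 and 17.5 ± 0.732 CPM. The LIM homeobox gene Lhx5 and the helix-loop-helix gene Nhlh2, both also markers of Cajal-Retzius cells, were at 1.76 ± 0.164 and 9.17 ± 0.728 CPM in null, 0.661 ± 0.165 and 2.79 ± 0.173 in layer 5, and 5.10 ± 0.765 and 21.6 ± 2.44 in WT layer 6. The 11 Cajal-Retzius markers, with Reln at 254 ± 6.80, 410.4 ± 3.42 and 546 ± 39.7 CPM in the same order, summed to 327 to 352 CPM in null, 485 to 494 in layer 5 and 653 to 749.6 in WT layer 6. Reln held most of each sum. By gene, 6 of the 10 tested markers (60%) were higher in null than in layer 5, 3 (30%) were lower and 1 was not called (median 0.44). The shares over all genes were 42.4% and 41.8%. Against WT layer 6, 1 was higher and 7 were lower in null, beside 7.31% and 6.86% of all genes. None of the 11 markers was at 0, and their part in these values was not tested.

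**Figure D4:**
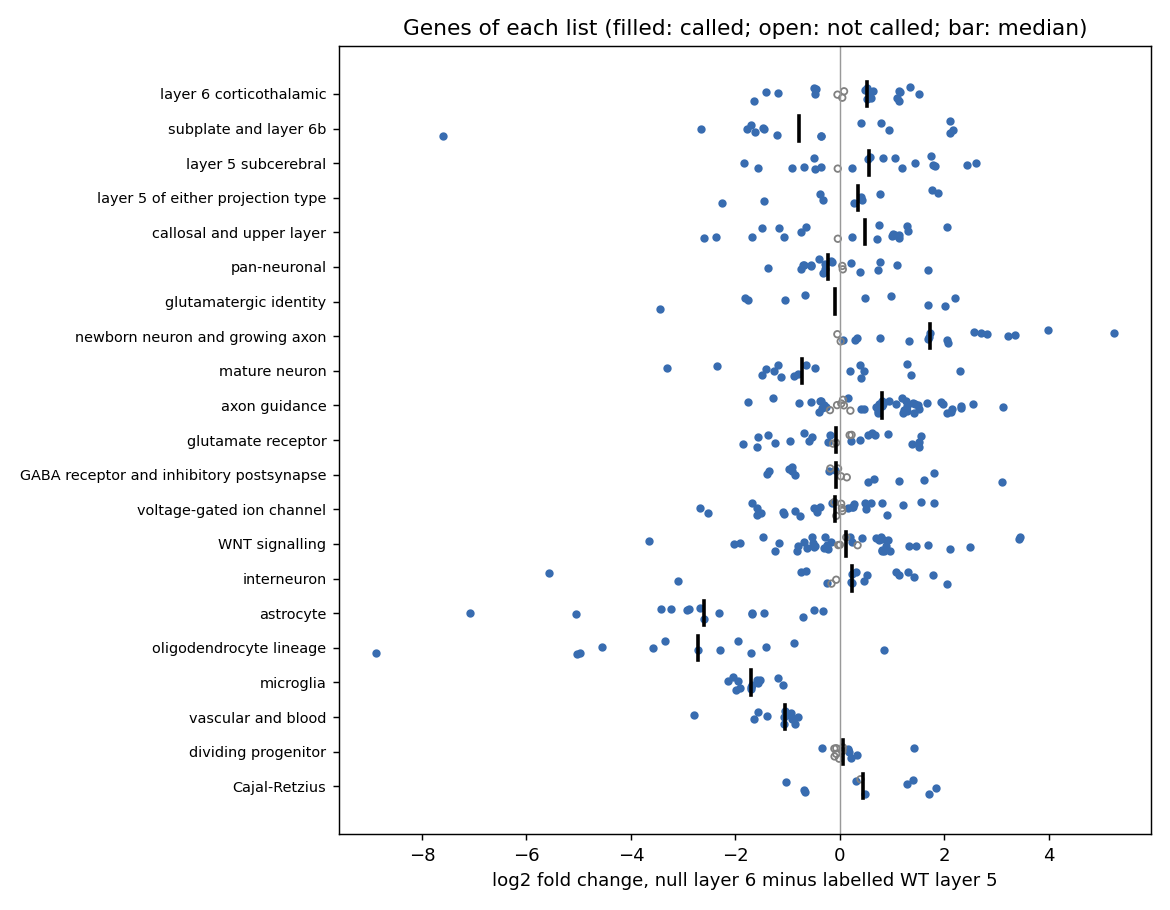
Log2 fold change of null against layer 5 for each gene of 21 lists, with filled points for called genes, open points for genes not called and a bar at the list's median. Newborn-neuron genes lie to the right, up to Neurog2 at 5.24, and astrocyte, microglia and vascular genes lie to the left.

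All 15 astrocyte, 13 microglia and 12 tested vascular markers were lower in null than in layer 5, as were 12 of 13 tested oligodendrocyte lineage markers. The share lower over all genes was 41.8%. Medians were -2.61, -1.71, -1.06 and -2.71 in that order. Aqp4, the water channel of astrocytes, had 12.2, 10.1, 12.8 and 12.9 CPM in null and 390.2, 396, 404 and 401 in layer 5, and Cnp, a myelin gene, at 16.8, 17.6, 19.6 and 19.4 and 219, 219, 217 and 221 CPM. Summed oligodendrocyte lineage markers were 294 to 306 CPM in null and 1262 to 1273 in layer 5, microglia markers 145 to 161 and 454 to 468, and vascular and blood markers 446 to 521 and 1059 to 1079. Mobp and Hbb-b1 had 0 counts in all 4 null libraries, and Hba-a1 and Hbb-b1 in all 4 layer 5 libraries. Of 19 interneuron markers tested, 12 (63.2%) were higher and 5 (26.3%) lower in null, beside 42.4% and 41.8% of all genes. The counts were 9 and 7 with the upper quartile or pan-neuronal scaling, and 10 and 8 of 20 with null replicates 1 and 2 alone. Interneuron markers summed to 544 to 551 CPM in null against 358 to 368 in layer 5. Gad1, which makes GABA, was not called (-0.070 ± 0.066). Of 14 dividing progenitor markers, 6 (42.9%) were higher, 1 (7.14%) was lower and 7 were not called, beside the same shares of all genes. The balance became 3 higher and 2 lower with the upper quartile and 3 and 3 with pan-neuronal scaling, with medians of -0.033 and -0.028. Top2a was at 0.16 ± 0.033, a call lost when scaled by the upper quartile (0.072) or to pan-neuronal genes (0.077).

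Sex-linked genes differed as well. Xist, the noncoding RNA of X inactivation, had 290.1, 299, 262 and 263 CPM in null and 40.9, 39.5, 41.1 and 41.1 in layer 5, and Ddx3y, a Y-linked gene, had 1, 0, 0 and 3 counts in null and 1501, 1496, 1263 and 1273 in layer 5. The layer 5 libraries thus held both Xist and Y-linked RNA, and the null libraries at most 3 counts of Ddx3y. WT layer 6 had 3121, 2279, 2 and 2 counts of Ddx3y and 0.458, 0.448, 289 and 287 CPM of Xist, so its replicates 1 and 2 differed from 3 and 4. The part of sex in the other genes was not tested.

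**Figure D5:**
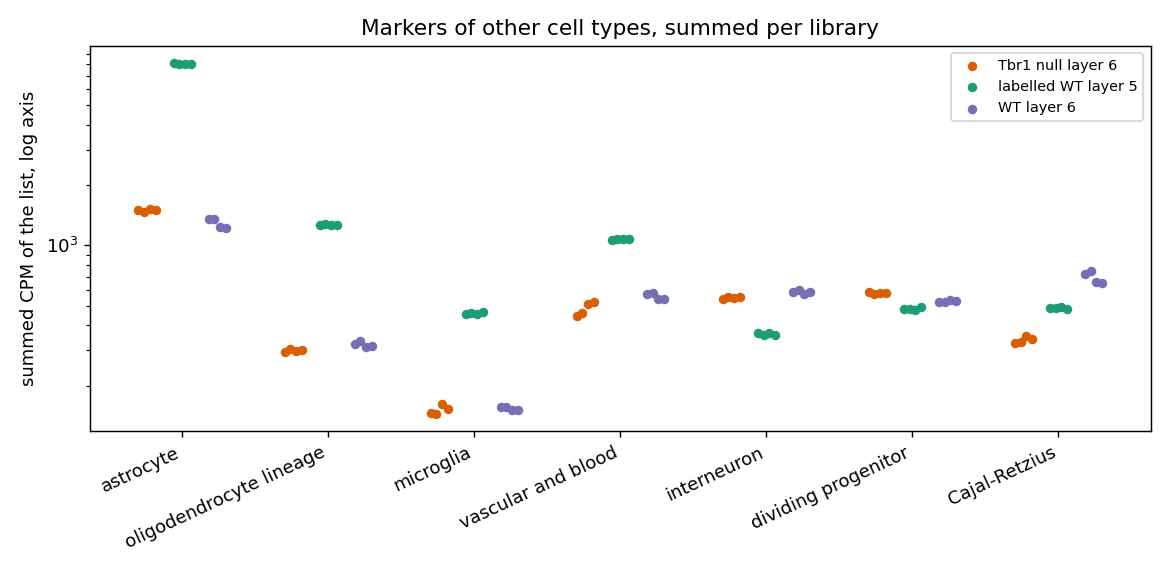
Summed TMM-scaled CPM of the markers of 7 other cell types in each library, on a log axis. Astrocyte sums lie at 8045 to 8068 in layer 5, above all null and WT layer 6 libraries, while interneuron sums are lower in layer 5 than in both layer 6 groups.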

How the data were processed

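The authors deposited raw counts for 24015 genes in 12 libraries of sorted neurons. The submitters' processing notes name STAR 2.5.2b, HTSeq, bedtools and mm9, without roles. Per the labels' protocols, libraries were stranded and ribosome-depleted. Neither the annotation nor the counting's strand setting was stated there, so overlapping and antisense genes may share reads. 0 columns were left unmatched to a sample. The test was edgeR 4.0.16 under R 4.3.3 (TMM, filterByExpr by group, quasi-likelihood F-test, Benjamini-Hochberg adjustment, called under 0.05) on the 8 libraries of the 2 groups compared, and the script was tested on simulated data. SE is the fold change over the root of F. DESeq2 1.42.0 and limma 3.58.1 served alternatives. Lists (22) and named genes were chosen with earlier results of these data known. Named genes were marked members of the lists, the 10 genes at each end of the fold changes (called, averaging 5 CPM or more, no overlap), and up to 6 each beyond or between both WT groups; predicted genes were skipped, and the text gives a subset and other list members; some list members are not reported here. The authors' normalised table and ChIP-seq peak lists were not used here. Depth in the 8 libraries was 27465597 to 47540669 counts.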

Additional observations from a re-analysis of the deposited data

Results flagged for a closer look

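Among 252 sets of 4 library values examined (named genes and list sums in null and in layer 5 libraries, totals and Rn45s shares), 7 had a library whose gap to the nearest other exceeded Dixon's 95% critical value. Chance flags about 1 in 20 only where the 4 values are independent. Libraries here were closest in pairs and list sums hold named genes, so that rate cannot be set against the 7. In null libraries, replicate 1 was high for Nrp1, at 549.8 CPM beside 513 to 517, and for Scn3a, at 151 beside 143 to 144. Replicate 3 was high for Fst, at 29.4 CPM beside 25.6 to 26.1, and replicate 2 was low for Gdf10, at 5.70 beside 6.37 to 6.50. In layer 5 libraries, replicate 2 was low for Xist, at 39.5 CPM beside 40.9 to 41.1. Replicate 3 was low for the summed subcerebral genes, at 750.1 CPM beside 765 to 767, and for the summed oligodendrocyte lineage markers, at 1262 beside 1271 to 1273.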

How the results depend on the processing

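The count of 12653 genes called between null and layer 5 ranged from 11826 to 13443 under the other normalizations, filters, tools, batches and library choices tried, except for 6364 against a fold of 1.5 (glmTreat). It was 12052 with the closest libraries summed (2 against 2), 12021 with them as a random block in limma, 11951 with layer 5 batch B and 11847 with batch C. The median over the corticothalamic list was 0.43 with the upper quartile, 0.44 scaled to pan-neuronal genes, 0.48 with a filter of 1 CPM in 4 libraries, and 0.57 or 0.46 with null replicates 1 and 2 or 3 and 4 alone, a split added after the data were seen. For the subplate list it was -0.41 with the 1 CPM filter, which dropped 1 gene here and 1 from the callosal list. With null replicates 3 and 4 alone it was -0.67, and with 1 and 2 alone -0.85. For the subcerebral list it was 0.70 with null replicates 3 and 4 and 0.47 with 1 and 2. That list gave 0.48 with the upper quartile and 0.48 scaled to pan-neuronal genes. The list of either layer 5 type gave 0.25 with the upper quartile, 0.26 scaled to pan-neuronal genes, 0.30 with the 1 CPM filter, 0.35 with library totals, 0.38 with no filter over the same 10 genes (0.44 with the gene gained) and 0.36 with libraries summed, and the callosal list 0.39, 0.39 and 0.67 with the first 3 of these and 0.42 with null replicates 3 and 4. Leaving out each library in turn gave 0.34 to 0.36 for the list of either layer 5 type and 12380 to 12688 genes called. The cause was not tested. Of 102 named genes, 87 kept their call and direction under every alternative. Gap43 was called lower with DESeq2 size factors, the upper quartile, pan-neuronal scaling and the 1 CPM filter, and Gad1 with the upper quartile, pan-neuronal scaling and null replicates 1 and 2 alone. Wnt7b reversed to -0.085 with null replicates 3 and 4. Against a fold of 1.5, Tle4, Foxp2, Sox5, Ntsr1, Ctgf, Etv1, Dcx, Grin2b, Nrgn, Ngfr, Gdf10 and Top2a were not called.

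With the replicate number as a block, 12551 genes were called. Same-numbered null and layer 5 libraries had deviations correlated at r = 0.0050 to 0.023, and each correlated best with its own number. Values this small cannot decide whether the libraries share more than a number. Rare genes are limited by depth: Cplx3 had at most 2 counts in null.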

Other observations

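Besides Neurog2, the genes highest in null against layer 5 held secreted factors: the activin antagonist gene Fst, at 25.6, 26.1, 29.4 and 26.1 CPM in null and 0.561, 0.848, 0.941 and 0.959 CPM in layer 5, the BMP antagonist gene Grem1, at 12.3, 10.8, 14.5 and 14.4 and 0.433, 0.526, 0.681 and 0.627 CPM, and the neuropeptide gene Nts, at 145, 139, 121 and 116 and 4.59, 4.36, 3.99 and 3.84 CPM. WT layer 6 had 12.1 ± 0.607, 5.24 ± 0.283 and 106 ± 8.01 CPM in that order, so null was above both WT groups for all 3. The desmocollin gene Dsc3 was at 36.6 ± 2.69 CPM in null, 0.952 ± 0.627 in layer 5 and 18.9 ± 4.98 in WT layer 6, and the carbonic anhydrase gene Car12 at 19.4 ± 7.06, 0.617 ± 0.0693 and 8.85 ± 0.198 CPM. Small RNA genes were among them too: Snora74a at 80.1 ± 3.0004 and 4.44 ± 0.216 CPM, Snord15b at 18.9 ± 3.32 and 1.12 ± 0.351, and the telomerase RNA gene Terc at 10.4 ± 1.37 and 0.630 ± 0.149. WT layer 6 had 62.0 ± 8.08, 15.1 ± 4.02 and 12.6 ± 0.999 CPM of these. Against it, only Snora74a was called in null (0.37).

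Lars2, a mitochondrial leucyl-tRNA synthetase gene, was at 514, 76.96, 1314 and 2450.2 CPM in null and 63.7, 62.6, 60.98 and 59.8 CPM in layer 5. WT layer 6 had 20.99, 43.8, 38.1 and 270.5 CPM, so its replicate 4 was above null replicate 2. The ribosomal RNA gene Rn45s took 0.921%, 0.592%, 1.63% and 2.67% of the counts in the same null libraries and 1.21% to 1.252% in layer 5. The null libraries thus had the same order in both, and the relation was not tested.

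The T-box core letters GGTGTGA, on either strand, stood in the RefSeq promoter window (build GRCm38.p6, 250 bases before to 50 after the start) of 1 of 13 corticothalamic genes with a window (Lmo3) and of 0 of 13 subplate, 0 of 14 subcerebral, 0 of 7 either-type layer 5 and 0 of 17 callosal genes, against 3.29% of 11856 tested genes with a window. This says only which windows hold the letters.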
